A study of Drosophila melanogaster with 3 samples.

Results

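The peaks described here are sites of NK7.1 occupancy that lay inside a protein-coding gene but far from any start of transcription of a coding gene. They were chosen by position: the summit, the base of highest signal in a peak, had to fall inside the body of a protein-coding gene and more than 5000 bp from the nearest transcription start site (TSS) of any protein-coding transcript. Reproducible peaks are those the authors kept by the irreproducible discovery rate (IDR), which scores how well peak ranks match across replicates. By the rule 252 of 2475 reproducible peaks (10.2%) were far gene-body peaks. The other reproducible peaks comprised 415 gene-body peaks at 1 to 5 kb from a TSS, 1526 peaks within 1 kb of a TSS and 282 peaks outside coding genes.

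The study profiled 1 group in 3 biological replicates by chromatin immunoprecipitation followed by sequencing (ChIP-seq). Each library came from pooled male and female whole embryos aged 0 to 24 h, from a transgenic fly line that stably expresses NK7.1 with GFP at its C-terminus. Antibodies to GFP pulled down the tagged protein, so the values concern the fusion and not the endogenous protein alone. An untagged line was not analysed here, and a whole-embryo sample cannot tell which cell type or hour of development a peak comes from.

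NK7.1 is a homeobox transcription factor. Homeobox factors bind DNA through a homeodomain, whose typical core word is rich in A and T, and they switch target genes on or off. In flies many regulatory elements that control genes in development lie in introns, often long ones, at a distance from the start of the gene, and first introns are a common place for them. A ChIP-seq peak records where tagged protein was recovered with DNA and does not by itself identify a regulatory element or the gene it acts on.

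The sequences of the strongest far gene-body peak are shown first. This peak lies in an intron of osa, which encodes a subunit of a SWI/SNF chromatin-remodelling complex. Its summit was poorer in G and C than its flanks, as were 196 of 252 summits of the set. Each sequence is the plus strand of dm6, 5′ to 3′, taken from the RefSeq copy of the Release 6 assembly, and spans 101 bp. The summit window held 31.7% G and C, against 48.5% in the left flank and 59.4% in the right flank, both 500 bp away. This gap is wider than that between the set medians, 33.7% at summits and 41.6% in flanks. Capitals in all sequences mark the word TAAACA and the words TAATTG and TAATTA on either strand, and these osa windows hold none of them.

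osa summit, chr3R:17704379-17704479: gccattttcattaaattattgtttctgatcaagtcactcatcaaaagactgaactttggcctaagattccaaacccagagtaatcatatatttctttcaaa

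osa left flank, chr3R:17703879-17703979: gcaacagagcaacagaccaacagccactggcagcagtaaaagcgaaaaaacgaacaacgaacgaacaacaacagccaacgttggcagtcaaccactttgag

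osa right flank, chr3R:17704879-17704979: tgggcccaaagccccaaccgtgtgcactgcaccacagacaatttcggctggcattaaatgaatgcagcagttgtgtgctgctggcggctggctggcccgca

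The next sequences are the windows around strong intronic summits that hold TAAACA, shown because this word was more frequent at far gene-body summits than in their flanks. TAAACA is a core word bound by forkhead factors. Its reverse complement is TGTTTA. In smash and Raf the window also holds the homeodomain word TAATTG, read as CAATTA in smash.

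S intron, chr2L:1072352-1072452: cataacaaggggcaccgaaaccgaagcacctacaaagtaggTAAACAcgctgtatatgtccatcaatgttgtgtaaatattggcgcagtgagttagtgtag

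smash intron, chr3R:4665124-4665224: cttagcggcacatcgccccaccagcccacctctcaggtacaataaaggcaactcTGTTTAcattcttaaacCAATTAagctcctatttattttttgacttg

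Raf intron, chrX:2300658-2300758: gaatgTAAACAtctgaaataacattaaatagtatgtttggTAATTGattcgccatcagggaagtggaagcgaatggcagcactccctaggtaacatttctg

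Hr4 intron, chrX:1947727-1947827: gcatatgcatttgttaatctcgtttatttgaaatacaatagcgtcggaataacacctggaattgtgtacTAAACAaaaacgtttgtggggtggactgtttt

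InR intron, chr3R:21613450-21613550: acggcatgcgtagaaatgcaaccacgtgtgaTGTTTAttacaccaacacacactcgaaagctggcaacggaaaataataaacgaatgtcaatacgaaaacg

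The last sequences are the other windows of Hr4, the host gene with the most summed signal, and the window of the NK7.1 gene itself. They are shown because a single gene can carry several far peaks and because NK7.1 is the gene of the tagged factor. None of these windows holds a word in capitals, so summits without any searched word are among the set.

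Hr4 intron, strongest peak, chrX:1951847-1951947: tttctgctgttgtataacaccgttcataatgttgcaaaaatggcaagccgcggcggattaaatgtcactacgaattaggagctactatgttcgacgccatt

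Hr4 intron, the third by signal, chrX:1963871-1963971: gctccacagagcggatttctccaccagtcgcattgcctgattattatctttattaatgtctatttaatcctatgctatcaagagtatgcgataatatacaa

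Hr4 intron, weakest peak, chrX:1984305-1984405: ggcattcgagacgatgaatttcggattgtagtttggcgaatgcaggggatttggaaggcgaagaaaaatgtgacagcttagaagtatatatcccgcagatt

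NK7.1 intron, chr3R:14351531-14351631: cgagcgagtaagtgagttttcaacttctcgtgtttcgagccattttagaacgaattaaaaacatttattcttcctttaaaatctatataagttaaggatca

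The far gene-body peaks had a median signal of 128 (interquartile range 107 to 166, lowest 92.6, highest 659), against 137 in the other reproducible peaks (109 to 197). Signal here is the authors' score on the scale of the peak caller, so it ranks peaks within a list and does not compare lists. The far gene-body peaks had a median rank of 1376, against 1216 in the others. Of the 100 strongest peaks of the set 5 were far gene-body, which is 1.98% of the far gene-body peaks, against 4.27% of the others. The peaks outside coding genes had a median signal of 129 and a median rank of 1360, close to the far gene-body values, so the lower rank was not particular to the far gene-body peaks.

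The same order held when each replicate was ranked on its own. Among the 2475 strongest peaks of each replicate, 242, 249 and 226 were far gene-body in replicates 1, 2 and 3, a share of 9.66% ± 0.476 (SD, n = 3). Their median ranks were 1420, 1444 and 1336, against 1219, 1218 and 1227 for the other peaks of the same replicates. The difference averaged 178 ± 62.0 ranks (SD, n = 3) and had the same sign in 3 of 3 replicates. The exact sign-flip permutation test over replicates, two-sided, gave p = 0.25 and an adjusted p of 0.286 over 8 tests, and 0.25 is the smallest p that 3 replicates allow. No test of this family could therefore pass 0.05. A p of 0.25 here records only that the differences of all 3 replicates share a sign, whatever their spread.

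**Figure D1:**
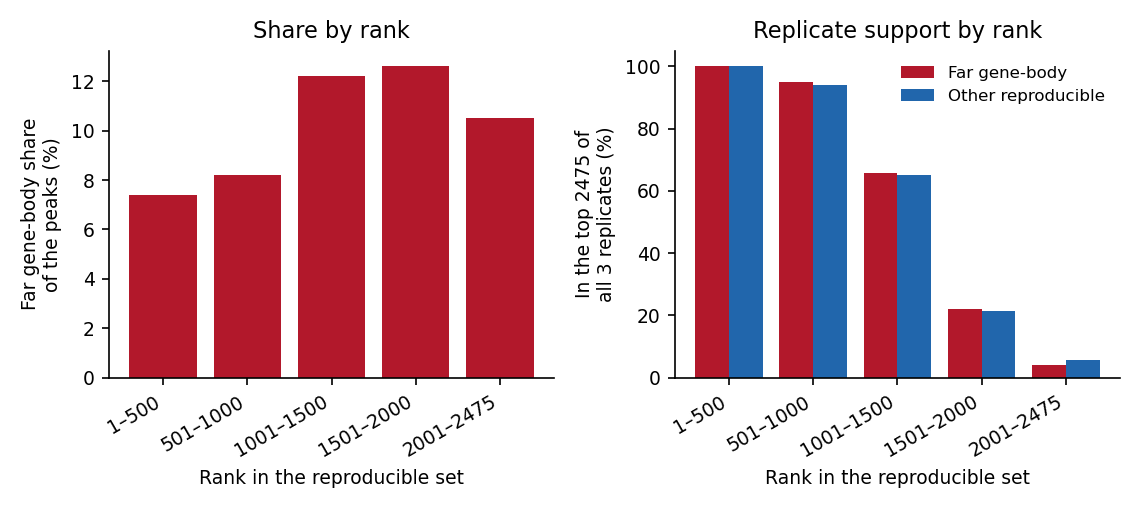
Left, the share of reproducible peaks that were far gene-body (%) by rank in the set. Right, the share of far gene-body peaks (red) and of other reproducible peaks (blue) found among the top 2475 peaks of all 3 replicates (%), by the same ranks. The far gene-body share ran between 7.40% and 12.6% across the ranks, and the red and blue bars on the right are of similar height at each rank.

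Among far gene-body peaks, 132 of 252 (52.4%, exact 95% binomial interval 46 to 58.7%) were overlapped by a top-2475 peak of every replicate. The share was 58.3% (56.3 to 60.4%) in the other peaks and 57.7% in all reproducible peaks. These intervals cover counting error only, and they treat peaks that share libraries as separate units. Support is counted in the libraries behind the IDR list, which had already kept peaks for matching ranks across replicates. Support is therefore a description here and no independent check, for the class and for each peak or host named below. By replicate, 77.4%, 79.4% and 77.4% of far gene-body peaks were supported in replicates 1, 2 and 3, against 82.1%, 79.4% and 81.2% of the others. A further 75 far gene-body peaks were supported by a pair of replicates, 44 by a single one and 1 by none. Peaks outside coding genes were supported by every replicate in 53.5%, and gene-body peaks at 1 to 5 kb in 59.5%. The unsupported peak lay in ftz-f1, which encodes a nuclear receptor.

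At equal rank the difference in support was small. Of the far gene-body peaks ranked 1 to 500 all 37 were supported by 3 replicates, as were all others of those ranks. At ranks 501 to 1000 the shares were 95.1% of far gene-body peaks and 93.9% of others. At ranks 1001 to 1500 they were 65.6% and 65.1%, and at ranks 2001 to 2475 they were 4.0% and 5.65%. The 4.0% is 2 peaks, in Dad and Pdk, and each overlaps a stronger reproducible peak. The replicate summits matched to them lay 145 to 254 bp away, so this support cannot be assigned to them alone. Support fell with rank in both classes, and the plot of support by rank shows both declining together. The ranks come from the pooled list of these same 3 replicates, so a decline was built in and is a description only.

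With full replicate lists in place of the top peaks, 251 of 252 far gene-body peaks (99.6%) were overlapped in every replicate. These lists hold 25801, 30000 and 30000 peaks from the same libraries that made the set. The share for the other reproducible peaks is not given, so 99.6% is no added support for this class. Their summits moved by a median of 11, 21 and 15 bp in replicates 1, 2 and 3, against 17, 20 and 20 bp for the others. As a description across peaks, which share libraries and are not replicates, Spearman's rho of the signal of these peaks was 0.596 between replicates 1 and 2 (n = 251), 0.486 between 1 and 3 (n = 252) and 0.536 between 2 and 3 (n = 251).

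The 15 strongest far gene-body peaks were in genes of several functions, and each was among the top 2475 of all 3 replicates. Among genes of chromatin and transcriptional cofactors, the osa peak (chr3R:17704273-17704562) had a pooled signal of 659, and 212, 189 and 257 in replicates 1, 2 and 3. Its summit was 13921 bp from the nearest TSS, and its summit moved by at most 4 bp between the pooled list and any replicate. Gug encodes the corepressor Atrophin, and its peak (chr3L:8458204-8458469) had a pooled signal of 492, and 186, 152 and 155 in the replicates. The peak in JIL-1, a histone H3 kinase gene, (chr3L:11084679-11084889) had a pooled signal of 427, and 182, 96.9 and 149 in the replicates. Replicate 2 was the low one at JIL-1 and also ranked it lowest, at 211. The peak shared by the overlapping genes Mi-2, a nucleosome-remodelling ATPase, and Su(Tpl), an elongation factor, (chr3L:19903200-19903369) had a pooled signal of 323. The peak in Smr, a nuclear receptor corepressor gene, (chrX:12735475-12735894) had a pooled signal of 313, and its ranks of 201, 105 and 510 in replicates 1, 2 and 3 were among the most spread.

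Nuclear receptors, which bind hormones or related ligands and regulate genes directly, hosted a pair of the 15. The strongest Hr4 peak (chrX:1951815-1952015) had a pooled signal of 369, and 126, 104 and 136 in replicates 1, 2 and 3. The Hr3 peak (chr2R:10219982-10220148) had a pooled signal of 322, and 119, 95 and 106 in the replicates. Its summit also lay in the overlapping coding genes CG12912 and CG46321. Hr4 and Hr3 both belong to the response to the steroid hormone ecdysone.

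Genes of signalling and cell polarity hosted 5 of the 15. The baz peak (chrX:17178582-17178856) had a pooled signal of 437, and 184, 144 and 107 in replicates 1, 2 and 3. baz encodes the polarity protein Par-3, and replicate 3 ranked this peak at 242, against 68 and 80 in replicates 1 and 2. The peak in S (Star), which acts in the trafficking of EGF receptor ligands, (chr2L:1072261-1072478) had a pooled signal of 401. The peak in fz, which encodes a Wnt receptor that also sets planar polarity, (chr3L:14303991-14304149) had a pooled signal of 302 and lay 25273 bp from the nearest TSS. The peak in Raf, a kinase of the MAP kinase cascade, (chrX:2303923-2304342) had a pooled signal of 301. The peak in wdb, a regulatory subunit gene of protein phosphatase 2A, (chr3R:27569850-27569991) had a pooled signal of 300. At fz replicate 3 gave the lowest rank, 417, whereas at wdb it gave the highest, 208, so no single replicate was low throughout.

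Others of the 15 were in CG32486 and beat-Ib. The CG32486 peak (chr3L:3060662-3060937) had a pooled signal of 548, and 179, 154 and 224 in replicates 1, 2 and 3. beat-Ib is of the beaten path family of immunoglobulin proteins, and its peak (chr2L:15911209-15911402) had a pooled signal of 344, and 97.0, 128 and 116. Replicate signals are each on their own scale and are compared here through ranks.

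**Figure D2:**
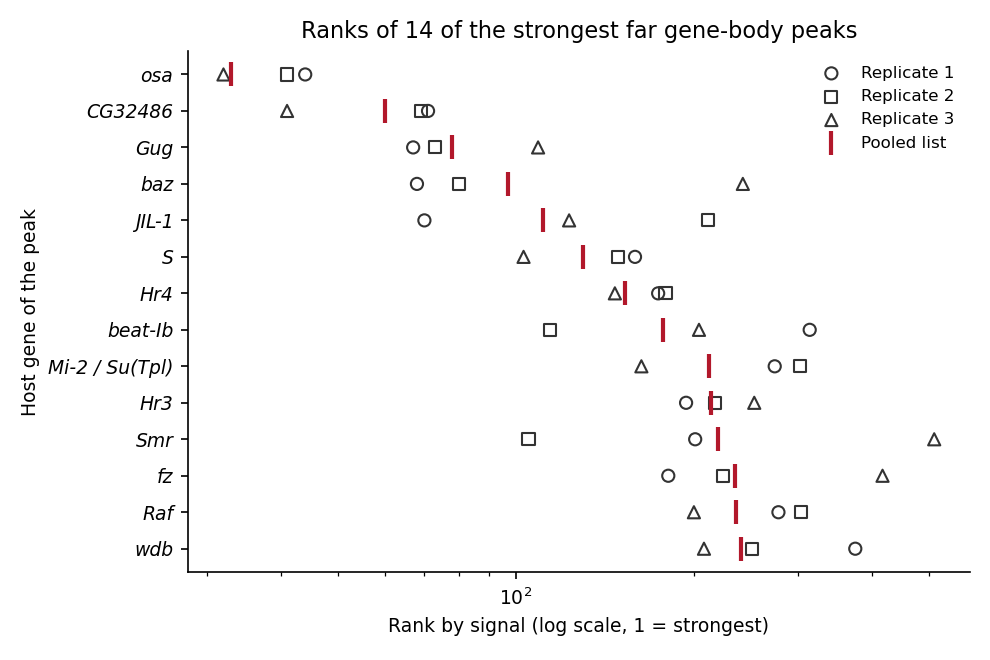
Rank by signal on a log axis, 1 being the strongest, of 14 of the 15 strongest far gene-body peaks, one row per peak with its host gene. Open symbols are the 3 replicates and the red bar is the rank in the pooled list. The osa peak ranked 44, 41 and 32 in the replicates, and the widest spread is that of Smr.

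Far gene-body peaks were less dense than peaks elsewhere. Sequence that a member could occupy, coding gene bodies more than 5000 bp from every coding TSS, made up 35.7 Mb or 26.7% of the 6 chromosome arms, and is called eligible sequence here. It held 7.05 far gene-body peaks per Mb, against 22.6 other peaks per Mb in the rest of the arms. In the replicates' own top lists the eligible density was 6.69 ± 0.330 per Mb (SD, n = 3). Far gene-body peaks made up 10.2% of the reproducible set, against 17.3% of the low-ranked list, which is the 23895 peaks of the pooled list that overlap no reproducible peak. The pooled list was made as input for IDR, so its low-ranked entries need not be binding sites.

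By arm, X held 61 far gene-body peaks and 9.45 per eligible Mb, and 2L held 44 and 7.85 per Mb. 3L held 6.72 per Mb, 2R 6.47 and 3R 5.90. The fourth chromosome held 1 peak. In replicates 1, 2 and 3 the X density was 8.52, 8.98 and 7.13 per Mb, and that of 2L was 8.21, 8.21 and 7.14. The replicate values of X and 2L overlap. Those of both arms lie above those of 3R (6.00, 6.10 and 5.81), 2R (6.13, 5.47 and 6.30) and 3L (6.00, 7.00 and 6.00).

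Distances to the nearest coding TSS ran from 5002 to 44599 bp with a median of 8166 bp (interquartile range 6370 to 12697 bp). Of the 252 peaks 93 (36.9%) lay beyond 10 kb and 28 beyond 20 kb. The nearest TSS belonged to the host gene itself for 177. The peaks farthest away were in jing (44599 bp, signal 98.9), mamo (42341 bp, 128), CG42238 (40581 bp, 94.9), Snoo (34854 bp, 215) and CG43759 (32152 bp, 184). All but the CG42238 peak were supported by at least 2 replicates.

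Close to the limit of 5000 bp the peaks were not of one strength. Just inside it were peaks in Mnt (5002 bp, signal 101), Ac13E (5008 bp, 132), tara (5010 bp, 213), Tis11 (5036 bp, 105) and RapGAP1 (5054 bp, 96.2). Just outside it were gene-body peaks in NK7.1 (4981 bp, signal 112), ush (4968 bp, 310), cno (4949 bp, 112), Pdk (4912 bp, 160) and Amph (4889 bp, 133).

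Most far gene-body summits were intronic. Introns held 247 of 252 (98.0%), against 83.0% of low-ranked far gene-body summits and 84.5% of eligible bases. Only 1 summit (0.397%) lay in a coding exon, against 14.4% of low-ranked summits and 10.7% of eligible bases. Exons outside coding sequence held 4 summits (1.59%), against 2.57% and 4.77%. In the replicates' own lists the intronic share was 98.8%, 96.8% and 96.9% in replicates 1, 2 and 3, each above the low-ranked and eligible shares.

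First introns held 141 of 252 summits (56.0%), against 37.2% of low-ranked summits and 26.1% of eligible bases. The replicates' own lists gave 55.8%, 57.4% and 51.8%, a mean of 55.0% ± 2.91 (SD, n = 3). This measure was chosen after the data were seen and has no test. With the limit at 3000 bp it was 61.1% for the peaks, 37.6% for low-ranked summits and 27.7% for eligible bases. At 10000 bp the values were 49.5%, 33.2% and 21.1%, so the order of the 3 was the same.

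The 5 peaks outside introns were each in a different gene. The baz summit lay in the 5′ UTR of some transcripts, with the values given above. The peak in the 3′ UTR of Cals, a calsyntenin gene, (chr4:1113135-1113554) had a signal of 280 and that in the 3′ UTR of pros, a homeodomain factor of neural lineages, (chr3R:11392773-11393192) had 165. The peak in a coding exon of klar, a gene of nuclear positioning, (chr3L:505993-506412) had a signal of 118. The peak in the 3′ UTR of Myd88, a Toll pathway adaptor, (chr2R:9302820-9303239) had 96.3. The baz, Cals and pros peaks were supported by all 3 replicates, whereas the klar and Myd88 peaks were each missing from the top list of 1 replicate, replicate 1 in both cases.

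**Figure D3:**
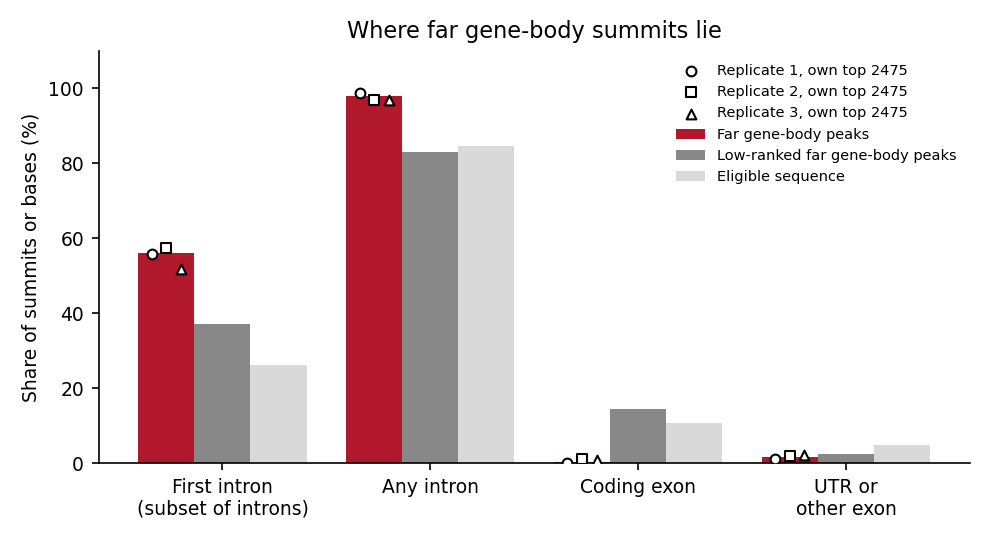
Share of summits (red, far gene-body peaks; dark grey, low-ranked far gene-body peaks) or of bases (light grey, eligible sequence) in first introns, any intron, coding exons and other exons (%), with open symbols for the 3 replicates' own top lists. Any intron includes the first. The red bar for first introns stands at 56.0%, above 37.2% and 26.1%, and the red bar for coding exons is close to 0.

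Within their host genes the peaks leaned to the 5′ side. Each summit was placed along the eligible sequence of its host, 0 being the 5′ end and 100 the 3′ end. The median place was 33.8 for far gene-body peaks, against 45.9 for low-ranked ones. In the most 5′ 10% lay 58 peaks (23.0%), against 12.0% of low-ranked ones, and in the most 3′ 10% lay 7 (2.78%), against 8.31%. Upstream of the midpoint lay 165 (65.5%), against 54.1%. The replicates' own lists gave 65.3%, 67.1% and 60.6% upstream of the midpoint, all above the low-ranked share.

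Annotated noncoding genes rarely had a start beside these summits. A noncoding TSS lay within 1000 bp of 15 far gene-body summits (5.95%), against 4.34% of gene-body summits at 1 to 5 kb, 22.7% of those outside coding genes and 9.82% of all reproducible summits. Both gene-body classes were thus below the value over all reproducible summits. The nearest were lncRNA:CR45888 inside dlp at 111 bp, lncRNA:CR46036 inside osa at 129 bp and lncRNA:CR44331 inside puc at 151 bp. The strongest far gene-body peak, in osa, lay 734 bp from lncRNA:CR46035. A tRNA start lay within 1000 bp of the peaks in CG12535 and Ptp61F. Annotated transposable elements overlapped 0 of 252 far gene-body summits, which allows a share of up to 1.19%, and 5 of the other reproducible summits.

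The 252 peaks lay in 192 of 2084 coding genes with eligible sequence (9.21%). Of these hosts 145 had 1 peak, 30 had 2, 11 had 3 and 6 had 4, and 9 peaks lay in overlapping genes. Hosts had a median of 23.7 kb of eligible sequence, against 6.25 kb in the other eligible genes. Peaks of the set were close together in some hosts: 56 (22.2%) had another member within 5 kb and 13 within 1 kb. Over the class, the median distance to the nearest reproducible summit was 9.68 kb, against 7.50 kb for the other peaks and 4.77 kb for gene-body peaks at 1 to 5 kb. The rule keeps members more than 5000 bp from every coding TSS, whereas most reproducible summits lay within 1 kb of one. The wider spacing therefore follows in part from the rule and is a description only.

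Among the hosts with most members, Hr4 (FBgn0264562) carried 4 peaks with signals of 369, 276, 243 and 130. All 4 were supported by 3 replicates. Eip75B (FBgn0000568), an ecdysone-induced nuclear receptor gene, carried 4 with signals of 281, 172, 156 and 145, and sbb (FBgn0285917), which encodes a nuclear cofactor, 4 with signals of 273, 272, 131 and 121. All peaks of these genes were likewise supported by 3 replicates. Hr4 thus held the highest summed signal, 1019, of the hosts.

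Support was partial in several other hosts of the most members. simj, which encodes a subunit of the NuRD complex, carried peaks of 271, 191, 104 and 93.8, of which 2 had full support. RapGAP1, which turns off the GTPase Rap1, had signals of 163, 149, 102 and 96.2, and the Hox gene Antp 127, 111, 108 and 92.6, each with 1 fully supported peak. The 3 strongest Antp peaks also lie in the overlapping gene CG46458. Among hosts of 3 peaks, Raf carried 301, 290 and 118, gpp, an H3K79 methyltransferase gene, 281, 198 and 96.5, Smr 313, 132 and 122 and fz 302, 129 and 121, each with 2 fully supported. The 2 supported Smr peaks have summits 201 bp apart and overlap the same replicate peaks, so the replicate signals and ranks given for Smr cannot be assigned to one of them. The 2 peaks in Dad, an inhibitor of Dpp signalling, share their replicate peaks in the same way, and no other members do in all 3 replicates. The Pdk peak of the set overlaps a stronger Pdk peak (signal 160) that lies just outside the limit and is not a member.

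Hosts also more often had a reproducible summit near their own start. Such a summit lay within 1 kb of a TSS of the gene in 72 of 192 hosts (37.5%), against 358 of 1892 other eligible genes (18.9%) and 20.6% of all eligible genes. In the replicates' own lists the share averaged 39.6% ± 2.83 in hosts and 19.0% ± 1.25 in non-hosts (SD, n = 3 each). Hosts are longer, so the shares were also taken within classes of eligible length. They were 30.8% of hosts and 19.9% of non-hosts with up to 5 kb, 38.0% and 19.0% with 5 to 20 kb, and 38.0% and 16.7% above 20 kb. The share was higher in hosts in each class, with 13, 71 and 108 hosts in them.

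The gene lists differed in how many of their genes hosted a far peak, beside 9.21% of all eligible genes and 7.08 members per Mb of gene sequence in them. Of 41 eligible transcription regulators 13 hosted one, at 13.8 members per Mb, and 13.4 ± 0.379 in the replicates (SD, n = 3). They included Hr3 with a signal of 322, the ecdysone receptor gene EcR with 218, the ETS factor gene pnt with 182, and sima (HIF alpha) and ush (a GATA cofactor) with 178 each. The others were Eip75B, pros, luna, ct, mamo, Antp, NK7.1 and the muscle regulator Mef2, of which Mef2 had the lowest strongest peak, 101.

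Of 31 eligible signalling genes 10 hosted a far peak (32.3%), at 14.8 members per Mb and 17.0 ± 1.42 in the replicates. They included fz with 302, the insulin receptor gene InR with 259, N (Notch) with 245, and dlp, a glypican that binds Wnt and Hedgehog ligands, with 245 and 197. The JNK phosphatase gene puc had peaks of 147 and 144. dnc, a cAMP phosphodiesterase gene, had 143 and Ptp61F, a tyrosine phosphatase gene, 141 and 107. mgl, dally and Sdc had a strongest peak of 132, 109 and 106. Signalling and transcription regulators thus lay above the value over all eligible genes in each replicate.

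The other lists lay below it per Mb. By share of genes hosting a far peak, adhesion and RNA-binding genes lay above the 9.21% of all eligible genes. Both measures differed with length. Density was 8.11 per Mb in eligible genes with up to 5 kb of eligible sequence, 11.4 with 5 to 20 kb and 5.80 above 20 kb. The share of genes hosting a far peak was 1.52%, 9.90% and 21.2% in the same classes. The lists were not matched for length. Of 46 adhesion and axon guidance genes 8 hosted a far peak (17.4%), at 3.81 members per Mb and 3.81 ± 0.734 in the replicates, led by caps with 176 and Ten-a with 170. The others were Fas3, kirre, fra, side, Ptp10D and Nrg. Of 23 RNA-binding regulators 3 hosted one (13.0%), namely how with 162, brat with 144 and pum with 128, at 3.10 per Mb. Of 23 muscle and cytoskeleton genes 1 hosted one, the formin gene Fhos with 122, and its peak was supported by 2 replicates. Of 30 ion channel and receptor genes 0 hosted one, which allows a share of up to 10% and a density of up to 3.04 per Mb. In replicate 1 alone 1 of these genes hosted a peak of its own top list. These lists and peaks were chosen with earlier results known, so the counts are a description with no test.

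**Figure D4:**
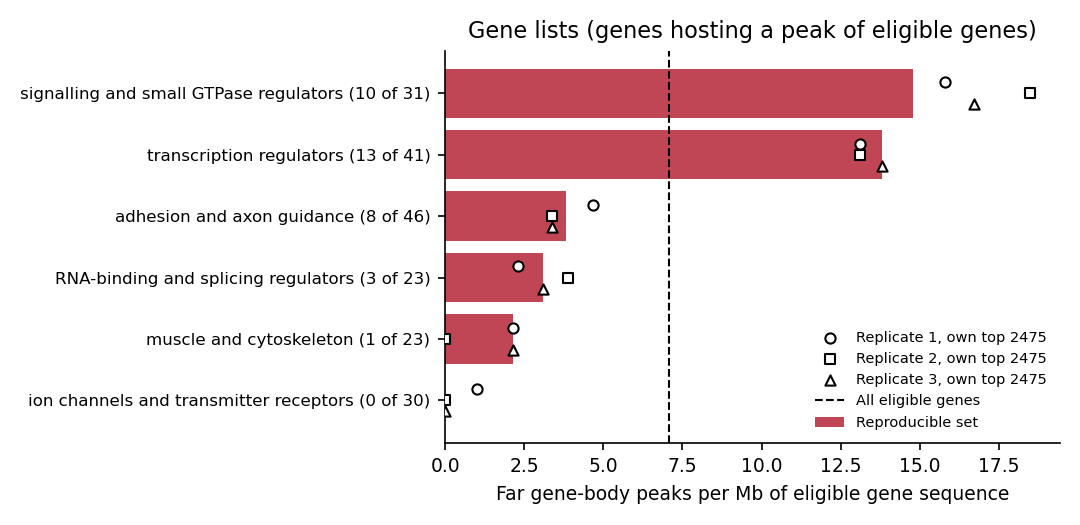
Far gene-body peaks per Mb of eligible gene sequence in 6 gene lists, with the number of hosting genes of the eligible genes beside each name. Bars are the reproducible set, open symbols the 3 replicates' own top 2475 and the dashed line all eligible genes at 7.08 per Mb. Signalling genes stand at 14.8 and transcription regulators at 13.8, and the other 4 lists fall left of the line.

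The NK7.1 gene itself hosted 1 far peak (chr3R:14351371-14351790) with a signal of 107 at 10205 bp from a TSS. It ranked 3163, 1508 and 4477 in replicates 1, 2 and 3, so it was in the top list of replicate 2 only. NK7.1 also had a reproducible summit near its own TSS. The sources do not say whether the transgene adds copies of this sequence, and its part in these peaks was not tested.

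Far gene-body summits were poor in G and C. The median GC content within 50 bp of the summit was 33.7% in far gene-body peaks, against 41.6% in their flanks 500 bp away on both sides, and it was below the flanks in 196 of 252 (77.8%). In low-ranked far gene-body peaks the median was 43.6% at the summit and 41.6% in the flanks. In replicates 1, 2 and 3 the far gene-body summits had 32.7%, 34.7% and 35.6%, against 40.4%, 40.6% and 41.3% in the flanks. The summits of all 3 were below the flanks without overlap, with a mean difference of -6.44 ± 1.08 percentage points (SD, n = 3), and the exact sign-flip permutation test, two-sided, gave p = 0.25 and adjusted p = 0.286.

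The dip in GC content was of similar depth in other reproducible summits. Taken as summit minus flank, it was -6.44 ± 1.08 points in far gene-body peaks and -6.77 ± 2.73 in other peaks of the same replicates (SD, n = 3 each). The difference of 0.330 ± 1.82 points changed sign between replicates, and the exact sign-flip permutation test, two-sided, gave p = 1.0. Without replicate 1 the difference was -0.371.

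**Figure D5:**
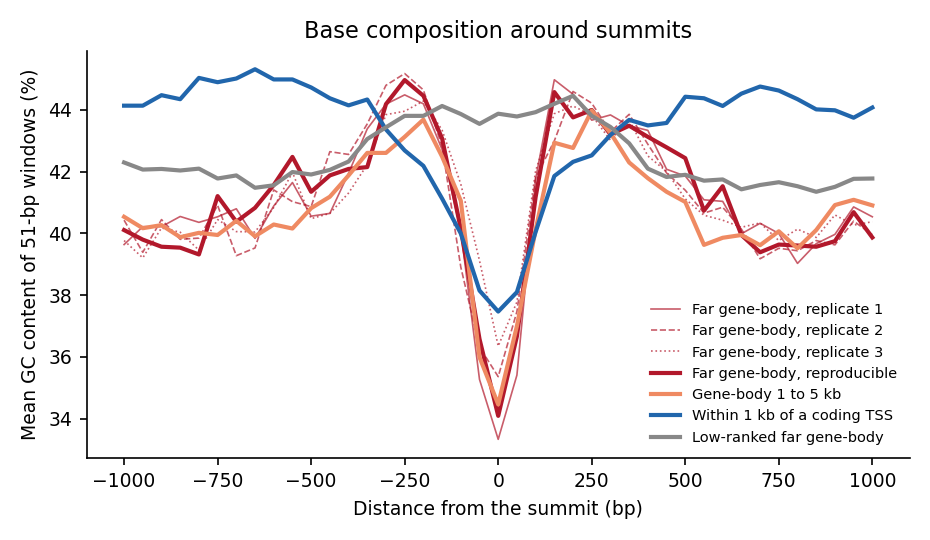
Mean GC content of 51-bp windows (%) against distance from the summit (bp) for far gene-body peaks (thick red; thin red, the 3 replicates' own lists), gene-body peaks at 1 to 5 kb (orange), peaks within 1 kb of a coding TSS (blue) and low-ranked far gene-body peaks (grey). The red, orange and blue curves dip at the summit and the grey curve does not.

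The windows of 50 bp on either side of the summits were searched, on both strands, for 5 words bound by fly factors, and the same share over all reproducible summits is given beside each. TAATTG, a homeodomain core, was at 27 of 252 far gene-body summits (10.7%), against 10.5% of flanks and 9.49% of all reproducible summits. TAATTA, another homeodomain core, was at 15 (5.95%), against 9.13% of flanks and 6.95% of all. In this set TAATTG was close to the flank share and TAATTA below it.

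GAGAG, the core of GAGA factor sites, was at 35 summits (13.9%), against 18.1% of flanks and 11.8% of all. CACGTG, the E-box, was at 1 summit (0.397%), against 1.39% of flanks and 1.05% of all. CAGGTA, the core of Zelda sites, was at 8 (3.17%), against 1.19% of flanks and 2.18% of all. In the replicates' own lists CAGGTA averaged 3.06% ± 0.352 at summits and 2.02% ± 0.176 in flanks, and GAGAG 14.0% ± 1.79 and 16.3% ± 0.578 (SD, n = 3 each). The exact sign-flip permutation test, two-sided, gave p = 0.25 and adjusted p = 0.286 for each of the 5 words.

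For TAATTG the replicates gave 13.2%, 9.64% and 9.73% at summits, against 9.92%, 9.44% and 9.51% in flanks. The difference of 1.24 ± 1.79 points (SD, n = 3) came mostly from replicate 1, and was 0.211 without it. Among the top 1237 peaks of each replicate it was 5.30 points, with the summits higher in 3 of 3 replicates (exact sign-flip permutation test, two-sided, p = 0.25), and with windows of 100 bp on either side it was 2.11. With the limit at 3000 bp it was -0.288 points and at 10000 bp -0.172. GAGAG likewise had a difference of -2.27 points, which was -7.08 in the top 1237, -1.45 without replicate 1, 1.02 at 10000 bp and 2.50 with windows of 100 bp on either side. The sign and size of both differences therefore depended on these settings.

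TAAACA, the word in capitals in several of the sequences above, was taken up after a search of all 2080 6-letter words at these summits, so its values are a description with no test. It was at 59 of 252 far gene-body summits (23.4%), against 9.33% of flanks, and at 16.4% of all reproducible summits. The difference of 14.1 points was second to that of AAATAT, at 15.1 points. The words that came next were ATTTTA (13.5 points), ATTTAA (12.3) and AAAATA (12.1), which like AAATAT hold only A and T. The 29 words with the same letters in another order, counted likewise, had a median difference of 4.17 points and a highest of 8.93. TAAACA was chosen for its difference, so its place above them follows from the choice.

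TAAACA was at 21.1%, 19.3% and 23.5% of far gene-body summits in the own lists of replicates 1, 2 and 3, against 10.3%, 9.24% and 11.3% of their flanks. The summit share was above the flank share without overlap. These replicates also made the set in which the word was chosen, so their shares are no independent check of it. It was at 21.4% of gene-body summits at 1 to 5 kb, against 13.5% of their flanks, and at 14.5% of summits within 1 kb of a TSS, against 9.08%. Among low-ranked far gene-body summits it was at 9.76%, against 9.47% of flanks. TATCGATA, the core of DREF sites common at housekeeping starts, was at 0 of 252 far gene-body summits, which allows a share of up to 1.19%. It was at 0 of 415 gene-body summits at 1 to 5 kb, which allows up to 0.723%, at 2 of 282 outside coding genes and at 2.75% of summits within 1 kb of a TSS. Over all reproducible summits it was at 1.78%. TATCGATA was not one of the 5 words above and has no test, and the rule leaves out summits near a coding TSS.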

How the data were processed

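ChIP-seq peak lists from 3 biological replicates of 1 group were used, grouped by the replicate numbers in the labels. The authors deposited narrowPeak lists on dm6 for each replicate, for the pooled libraries and for a set thresholded by the irreproducible discovery rate (IDR), per the listings deposited with them; neither aligner nor caller is named in the sources used here. In each list the signal is a score on the caller's own scale, and the deposited −log10 q-value was capped, so peaks were ranked by the signal. The lists hold no read counts, so depth is unknown.

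Gene models came from Ensembl 115 and sequence from the RefSeq copy of Release 6, whose arm lengths match dm6. Support from a replicate meant an overlap of 1 bp or more with any of its top 2475 peaks. Summit windows were 50 bp on either side, flanks the same width 500 bp to the left and right. Replicate tests were exact sign-flip permutation tests, two-sided, with Benjamini-Hochberg adjustment over 8 tests and a threshold of 0.05. Intervals are exact Clopper-Pearson and cover counting error only. Limits for a count of 0 use 3 counts.

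Named peaks were the 15 strongest, those outside introns, the 5 on each side of the limit and the 5 farthest. Named hosts were the 10 with most members and all hosting genes of the 6 lists of 220 genes. Of the 15 strongest, 1 is not reported here. Genes carrying the printed sequences, and some noncoding neighbours, were named after their values were seen. The members, lists and tests were chosen with earlier results of these data known. Functions were tested on simulated data. Alternatives changed the distance limit, window, overlap, replicate depth, TSS set and summit rule. Python 3.11.15, NumPy 2.4.6, pandas 2.3.3, SciPy 1.17.1 and Matplotlib 3.10.9 were used.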

Additional observations from a re-analysis of the deposited data

How the results depend on the processing

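Of 109 alternative values, 78 either kept their direction, where there was a test, or moved by less than the spread or 1.5 times. Where there was a test the side of the threshold of 0.05 could not change, since the smallest possible p is 0.25. A kept direction can hide a change in size: among the top 1237 TAATTG was 5.30 points against 1.24 and GAGAG -7.08 against -2.27, and TAATTA was -0.300 at 3000 bp against -2.40. Limits and thresholds set the counts: 93 peaks in 72 hosts lay beyond 10 kb, and the strongest 1237 peaks of the set held 107 in 94. Support by all replicates was 44.8% with reciprocal overlap of 50%, 84.1% with the top 4950, 99.6% with full lists and 92.5% in the strongest 1237, whose median signal was 181. It was 60.3% to 63.9% when a replicate was left out. The far share of the top peaks was 14.5% at 3000 bp, 3.80% at 10000 bp and 8.38% in the top 1237. Density was 8.07 per Mb at 3000 bp, 4.29 at 10000 bp, 2.99 in the strongest 1237 and 6.69 in the replicates' own lists, or 6.55 to 6.87 with one left out. First introns held 61.1% at 3000 bp, 49.5% at 10000 bp and 62.6% in the strongest 1237, an alternative chosen after seeing the data.

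Signs changed in 3 results, and the cause was not tested. The GC difference from other summits was -0.248 at 10000 bp and -0.371 to 1.36 with a replicate left out, against 0.330. TAATTG gave -0.288 at 3000 bp and -0.172 at 10000 bp, and GAGAG 1.02 at 10000 bp and 2.50 with 100 bp windows. The smallest p is 0.25 with 3 replicates and 0.5 with one left out. Samples could not be paired across groups because there is 1 group. The sign-flip tests are paired within each replicate, since both values of a difference come from the same library. Unknown depth limits every comparison of signal between lists.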
